A study of Mus musculus with 2 samples.

Results

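Genes that mark the astroglial and oligodendrocyte lineages of the mouse brain were read in RNA from newborn forebrain. The 41 genes were chosen by symbol from a list of radial glial, astrocyte and oligodendrocyte lineage genes, all 41 were matched by gene identifier, and they stand among 43346 genes listed for each library. They fall into 9 early astroglial genes, 8 mature astrocyte genes, 11 genes shared by astroglial stages, 9 oligodendrocyte precursor genes and 4 myelin genes. RNA came from whole forebrains of mice of strain B6NCrl at postnatal day 0, untreated as far as the labels say, with sex not collected. There were 2 libraries in 1 group, from pup 1 (replicate 1) and from pup 3 (replicate 2), each made by a Smart-seq protocol from 13 pg of RNA over 200 nt, the amount in 1 cell-equivalent. Although the assay carries a single-cell name, the input was extracted tissue RNA, so every value is an average over all forebrain cells, and fewer cells of a type cannot be told apart from less RNA per cell.

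Radial glia are the stem cells that line the ventricles of the developing forebrain and send fibres to its surface; around birth they stop making neurons and turn into astrocytes. Astrocytes then take up glutamate, buffer water and ions, supply lipids and cover vessels with their endfeet. Oligodendrocytes arise from separate precursors that carry the growth factor receptor encoded by Pdgfra and the transcription factor encoded by Olig2, and in mouse forebrain they wrap axons in myelin mainly in the weeks after birth.

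Most astroglial genes were found in both pups, and oligodendrocyte genes were low and mostly found in 1 pup or in neither. A gene was called found at 1 TPM or more (TPM is the length-corrected share of a library's transcripts, scaled to the same total in each). Of the 28 astroglial genes, 25 were found in both pups, Sox9 and S100b (2 genes) in pup 1 alone and Hopx (1 gene) in neither. Of the 13 oligodendrocyte genes, both libraries held 2 (Pdgfra and Cnp), 6 were found in pup 1 alone, 2 (Olig2 and Sox10) only in pup 3, and 3 (Nkx2-2, Gpr17 and Mog) were not found. The summed level of the astroglial genes was 7310 TPM in pup 1, against 9072 TPM in pup 3. The summed level of the oligodendrocyte genes was 155 TPM in pup 1, against 31.2 TPM in pup 3. The astroglial sum was 47.3 times the oligodendrocyte sum in pup 1 and 290.4 times it in pup 3.

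**Figure D1:**
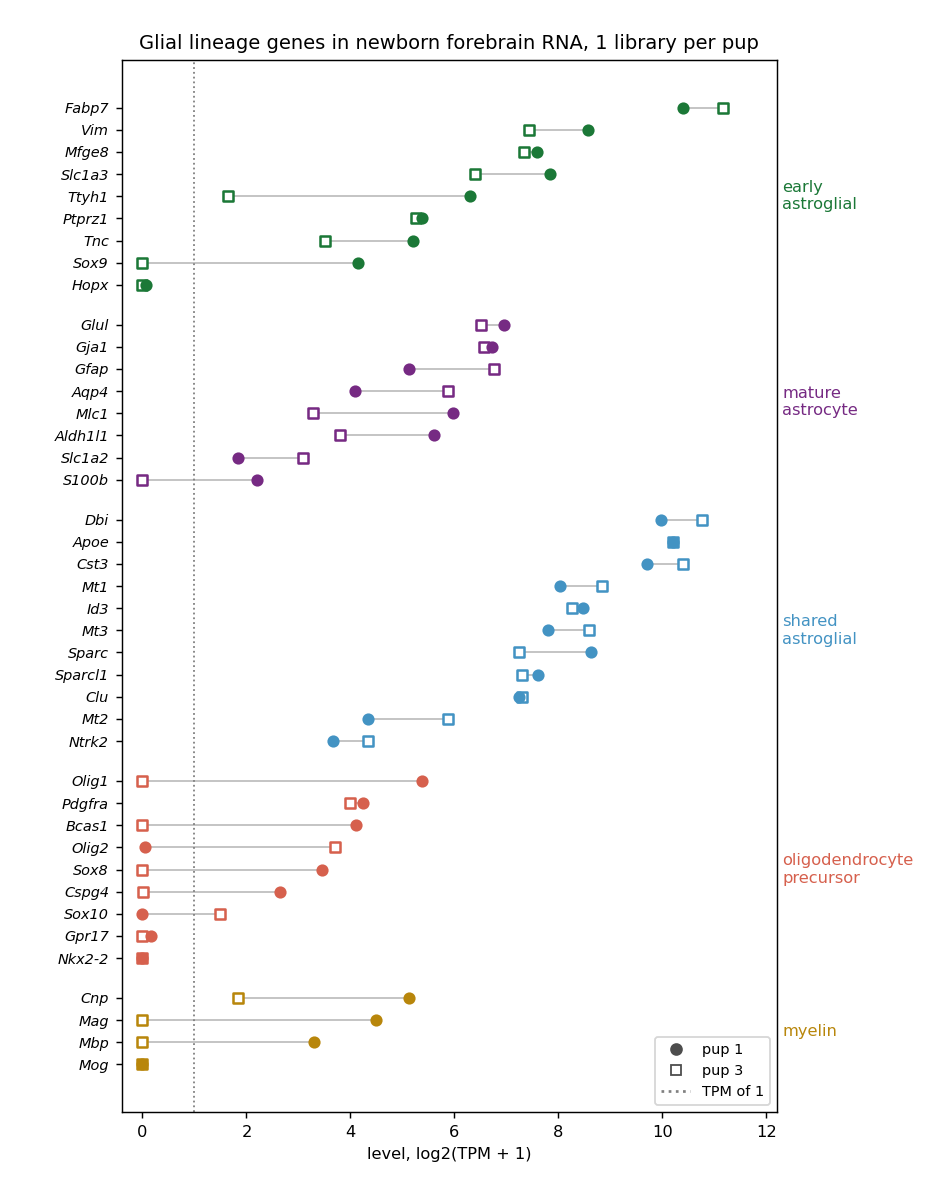
Level of each of the 41 genes, as log2(TPM + 1) on the horizontal axis, in pup 1 (filled circles) and pup 3 (open squares), with genes grouped by class and ordered by mean TPM within it; grey lines join the 2 libraries and the dotted line marks a TPM of 1. The shared astroglial genes lie to the right of that line in both pups, whereas most oligodendrocyte precursor and myelin genes have 1 symbol at or near 0.

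The libraries were of unequal size and depth of detection. The total of expected counts was 41082811 for pup 1 and 29881397 for pup 3, and 9048 protein-coding genes were found in pup 1, against 6210 in pup 3. The spike-in share of TPM was 4.46% for pup 1 and 7.30% for pup 3. A count of 0 allows up to 3 reads, or a CPM (count scaled to library size) of 0.0730 in pup 1 and 0.1004 in pup 3; such limits cover counting error only. The median log2 ratio of pup 1 over pup 3, on log2(TPM + 1), was 0.92 over the 9953 nuclear protein-coding genes found in either pup. Forebrain genes chosen after their values were seen were present, with Neurod6 at 272 TPM in pup 1 against 456 TPM in pup 3 and Bcl11b at 18.8 TPM in pup 1 against 11.7 TPM in pup 3. Dlx1, a gene of inhibitory neurons, had 101 TPM in pup 1 and 9.81 TPM in pup 3, and Emx2 and Dlx2, also forebrain genes, had 0 reads in both. None of 39 Hox genes, which mark hindbrain and spinal cord, was found.

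These lineage genes were set against all nuclear protein-coding genes found in either pup, in all and by level. Of the 37 lineage genes that passed in at least 1 library, 27 (73%) passed in both, where the background was 53.3%. Finding in pup 1 alone took 8 of the 37, against a background of 37.6%, and finding in pup 3 alone took 2 of the 37, against 9.09%. The share found in both was larger at higher levels, for the lineage genes as for all genes. All 14 lineage genes with a mean of 100 TPM or more were found in both pups, where the background was 99.1%. Both genes from 50 to 100 TPM were found in both, where the background was 91.5%. From 10 to 50 TPM, 10 of 12 were found in both, where the background was 53.1%, and from 1 to 10 TPM 1 of 8 (Slc1a2) was, where the background was 15.2%. Astroglial genes made up 8 of the 12 genes from 10 to 50 TPM, and all 8 were found in both pups. Of the oligodendrocyte genes, 2 of 4 from 10 to 50 TPM and 0 of 5 from 1 to 10 TPM were found in both, which is near the background for those levels given the few genes. The remaining 5 genes had a mean under 1 TPM, and none of them was found in both.

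**Figure D2:**
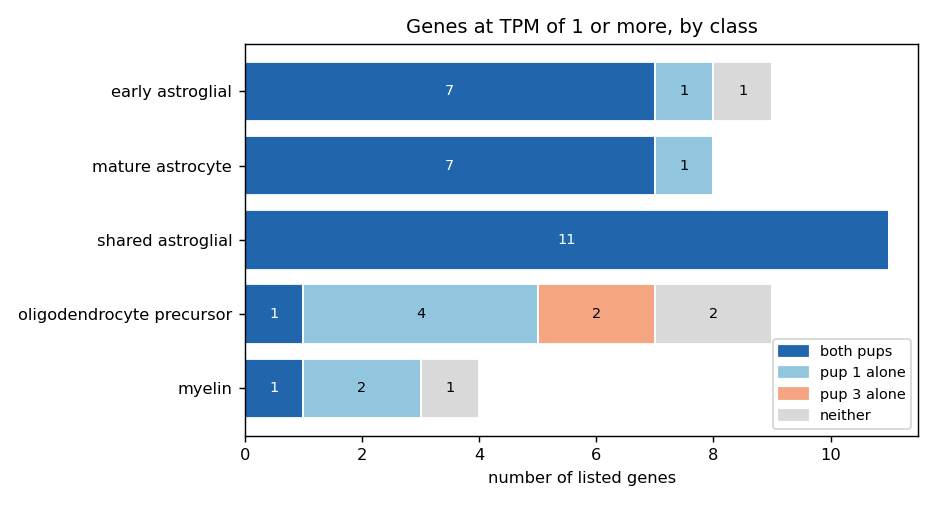
Number of genes in each class (horizontal axis) found at a TPM of 1 or more in both pups (dark blue), only in pup 1 (light blue), only in pup 3 (orange) or not at all (grey). All 11 shared astroglial genes were found in both pups, against 1 of 9 oligodendrocyte precursor genes and 1 of 4 myelin genes.

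Among the early astroglial genes, which mark radial glia and immature astrocytes, the fatty acid binding protein gene Fabp7 stood far above the rest. It had 1337 TPM in pup 1 and 2290 TPM in pup 3, from 25010 reads and 37472 reads, a mean of 1813 ± 674 TPM (SD, n = 2). Among nuclear protein-coding genes its rank was 63 in pup 1 and 23 in pup 3, the highest of any lineage gene in either library. Vim, the intermediate filament of radial fibres, had 379 TPM in pup 1 and 173 TPM in pup 3. Slc1a3, the glutamate transporter GLAST, had 228 TPM in pup 1 and 83.1 TPM in pup 3. Both were thus higher in pup 1 while Fabp7 was higher in pup 3, so that Fabp7 was 3.53 times Vim in pup 1 and 13.3 times Vim in pup 3.

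Genes for the surface and matrix of early glia differed in how well they matched between pups. Mfge8, a secreted bridge between dying cells and the integrins of cells that engulf them, had 192 TPM in pup 1 and 161 TPM in pup 3. Ptprz1, a receptor phosphatase with a proteoglycan outer part, had 40.8 TPM in pup 1 and 37.4 TPM in pup 3. These 2 genes were close to equal, and which pup was higher changed between TPM and the deposited FPKM. Tnc, the matrix protein tenascin C, had 35.8 TPM in pup 1 and 10.4 TPM in pup 3. Ttyh1, a membrane protein of neural stem cells, had 77.7 TPM in pup 1 and 2.11 TPM in pup 3, a log2 ratio of 4.66. Over its protein-coding transcripts alone it had 16.8 TPM in pup 1 and 2.11 TPM in pup 3, a log2 ratio of 2.52, and in counts scaled by TMM the log2 ratio was 3.74.

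The transcription regulators of this class were found least evenly. Sox9, which drives the switch of neural stem cells to making glia, had 16.6 TPM from 1775 reads in pup 1 and 0 reads in pup 3. Set against the 3 reads that a count of 0 allows in that library, Sox9 was at least 517-fold higher in the library of pup 1. Such a bound covers counting error alone and not transcripts lost while libraries were made. It therefore sets no lower limit on a difference between the pups. Hopx, a small homeodomain protein of later radial glia, had 1.35 estimated reads in pup 1 and 0 in pup 3; the antisense gene Hopxos, which overlaps it, had 11.3 TPM in pup 1 and 0 in pup 3, and the strand setting of the counting is not given in the sources used here.

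Among the mature astrocyte genes, those for gap junctions and glutamine synthesis were the most even. Gja1, which encodes connexin 43, had 104 TPM in pup 1 and 93.5 TPM in pup 3, close to equal, with FPKM placing pup 3 higher. Glul, glutamine synthetase, which turns glutamate taken up from synapses into glutamine, had 122 TPM in pup 1, against 89.6 TPM in pup 3. The transporter that takes up most of that glutamate in the adult, Slc1a2 (GLT-1), was low, at 2.58 TPM in pup 1 against 7.51 TPM in pup 3. The early transporter Slc1a3 was therefore 88.3 times Slc1a2 in pup 1 and 11.1 times it in pup 3.

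Genes of the astrocyte skeleton, endfeet and metabolism split in direction between the pups. Gfap, the intermediate filament of mature astrocytes, had 33.7 TPM in pup 1 and 107.5 TPM in pup 3. Aqp4, the water channel of endfeet, had 16.0 TPM in pup 1 and 57.9 TPM in pup 3. Aqp4 was 0.475 times Gfap in pup 1 and 0.538 times Gfap in pup 3, so their ratio was close between libraries in which each was higher in pup 3. In the opposite direction, Mlc1, another endfoot membrane protein, had 61.9 TPM in pup 1 and 8.71 TPM in pup 3, and Aldh1l1, a folate enzyme used as a marker of all astrocytes, had 47.4 TPM in pup 1 and 13.0 TPM in pup 3. S100b, a calcium-binding protein, had 3.59 TPM from 132 reads in pup 1 and 0 reads in pup 3, at least 38.4-fold higher in the library of pup 1. Dip2a, which overlaps S100b on the other strand, had 5.30 TPM in pup 1 and 0 in pup 3.

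Early astroglial genes were set against mature astrocyte genes in each library. The median over the early genes was 77.7 TPM in pup 1 and 37.4 TPM in pup 3, and that over the mature genes was 40.5 TPM in pup 1 and 35.4 TPM in pup 3. On log2(TPM + 1), with genes at 0 included, the early median exceeded the mature median by 0.94 in pup 1 and by 0.42 in pup 3, a mean difference of 0.68 ± 0.37 (SD, n = 2). The order rests on where Slc1a2 is placed, since counting it as an early gene turned the mean difference to -0.62.

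The 11 shared astroglial genes, expressed by radial glia and astrocytes alike, were the highest and most even class. Their median was 259 TPM in pup 1 and 305 TPM in pup 3, and 9 of the 11 lay within 2-fold between pups on log2(TPM + 1), where 3 of 8 found early genes and 2 of 8 mature genes did and the background was 28%. The early and mature shares were thus close to that of all genes. Most shared genes had a mean of 100 TPM or more, whereas the background of 28% spans all levels. The share within 2-fold was not computed by level. Whether the shared genes were more even than other genes of like level is therefore not known. Apoe, the main lipid carrier of the brain, had 1172 TPM in pup 1 and 1183 TPM in pup 3, a mean of 1177 ± 7.46 TPM (SD, n = 2). Clu, clusterin, a chaperone also carried on lipoproteins, had 151 TPM in pup 1 and 156 TPM in pup 3. Apoe was 7.79 times Clu in pup 1 and 7.58 times Clu in pup 3.

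The small proteins encoded by Dbi and Cst3 were also abundant, and both genes were higher in pup 3. Dbi, which binds acyl-CoA esters and is the source of peptides that act on GABA-A receptors, had 1009 TPM in pup 1 and 1734 TPM in pup 3. Cst3, the protease inhibitor cystatin C, had 829 TPM in pup 1 and 1342 TPM in pup 3. Together with Fabp7 and Apoe, these were the 4 lineage genes with a mean over 1000 TPM. Id3, which blocks basic helix-loop-helix transcription factors, had 353 TPM in pup 1 and 305 TPM in pup 3, and under FPKM it too was slightly higher in pup 3.

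The 3 metallothionein genes, which encode zinc- and copper-binding proteins and lie within a short stretch of chromosome 8 (18518 bases between Mt3 and Mt2 and 5514 between Mt2 and Mt1), were higher in pup 3. Mt1 had 259 TPM in pup 1 and 454 TPM in pup 3. Mt3, the brain form, had 223 TPM in pup 1 and 383 TPM in pup 3. Mt3 was 0.861 times Mt1 in pup 1 and 0.844 times Mt1 in pup 3, so this pair kept nearly the same ratio. Mt2 was much lower, at 19.1 TPM in pup 1 against 57.4 TPM in pup 3.

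The matricellular pair went separate ways. Sparc, which loosens cell contact with the matrix, had 393 TPM in pup 1 and 151 TPM in pup 3. Its relative Sparcl1 (hevin), which promotes synapse formation, had 194 TPM in pup 1 and 156 TPM in pup 3. Sparc was thus 2.03 times Sparcl1 in pup 1 and 0.970 times Sparcl1 in pup 3. Sparc and Vim are also expressed by vessel and meningeal cells, and those cells were represented: of 8 endothelial markers 4 were found in pup 1 and 3 in pup 3, with summed levels of 66.0 TPM and 209 TPM, and of 8 meningeal markers 7 were found in pup 1 and 5 in pup 3, with sums of 2075 TPM and 1990 TPM. Most of the meningeal sum came from Ptgds. Without it, a step added after the values were seen, the other 7 markers summed to 325 TPM in pup 1, against 149 TPM in pup 3. The markers did not share a direction: of the 8, 5 were higher in pup 1 and 2 (Ptgds and Dcn) in pup 3. Mural cell markers, of which 4 of 6 were found in pup 1 and 2 of 6 in pup 3, summed to 124 TPM and 188 TPM. Vessel markers were split too: 3 endothelial markers were higher in each pup, as were 2 mural markers. Vtn made up most of both mural sums, whereas Pdgfrb (26.9 TPM) was read in pup 1 alone. Among endothelial markers, Esam went from 1.39 TPM in pup 1 to 71.9 TPM in pup 3, whereas Cdh5 (8.21 TPM) was read in pup 1 alone. The sums therefore do not rank the pups by vessel cells. The part of vessel and meningeal cells in the levels of Sparc and Vim was not tested.

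Apoe and Cst3 are also abundant in microglia. Of 12 microglial markers, 7 were found in pup 1 and 3 in pup 3, summing to 315 TPM in pup 1 and 116 TPM in pup 3, while Cx3cr1, P2ry12, Tmem119 and Trem2 had between 0 and 5 reads in either library. The microglial sum was lower in pup 3, where Cst3 was higher and Apoe was about equal, and its part in their levels was not tested. Choroid plexus markers, found for 3 of 8 genes in each pup, summed to 1853 TPM in pup 1 and 2067 TPM in pup 3, nearly all from Ttr. Ependymal markers, of which 3 of 4 were found in pup 1 and 0 in pup 3, summed to 43.8 TPM in pup 1 and 0 in pup 3, and Sox9 and S100b, which ependymal cells also express, were likewise found in pup 1 alone. The part of ependymal cells in those 2 genes was not tested.

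The transcript tables show which form of a gene was read. For Ntrk2, which encodes the neurotrophin receptor TrkB and lies at chr13:58806569-59133970, the form differed between the pups; this gene was below the level set for naming transcripts and was chosen after its values were seen. Ntrk2-201 encodes the full-length receptor with its kinase domain, and Ntrk2-202 the truncated T1 receptor, which lacks the kinase and is the main form in astrocytes. Their coding sequences, from GENCODE M21 on GRCm38, are the same for 1394 bases and then part; the last 36 shared bases are in lower case and the bases that follow in each form are in capitals, to its stop codon in Ntrk2-202 and for 144 bases in Ntrk2-201.
Ntrk2-202: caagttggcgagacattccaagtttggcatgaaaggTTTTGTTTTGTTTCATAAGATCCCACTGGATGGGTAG
Ntrk2-201: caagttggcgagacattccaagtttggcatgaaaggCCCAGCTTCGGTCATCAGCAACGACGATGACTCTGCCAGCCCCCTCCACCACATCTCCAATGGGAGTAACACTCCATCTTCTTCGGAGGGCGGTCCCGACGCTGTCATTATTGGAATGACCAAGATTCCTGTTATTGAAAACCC

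Ntrk2 as a whole had 11.7 TPM in pup 1, against 19.3 TPM in pup 3. The truncated form Ntrk2-202 had 2.99 TPM in pup 1 and 19.3 TPM in pup 3, from 547 and 3086 estimated reads. The full-length form Ntrk2-201 had 8.68 TPM in pup 1 and 0.01 TPM in pup 3, from 1944 reads and 2 reads. The truncated form therefore made up 25.6% of the gene's TPM in pup 1 and 99.9% in pup 3. Neurons express the full-length receptor, and neuronal markers were plentiful in both libraries, with 10 of 10 found in pup 1 and 9 of 10 in pup 3 and sums of 11668 TPM in pup 1 and 5996 TPM in pup 3; their part in the shares was not tested.

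Gfap (chr11:102887336-102900912) likewise has forms with different protein tails. Gfap-201 ends in the common tail, and Gfap-202 in an alternative last coding exon. The alternative tail was 7.27 TPM in pup 1 and 57.1 TPM in pup 3, or 21.6% and 53.1% of Gfap. The common tail was 26.4 TPM in pup 1 and 40.5 TPM in pup 3, or 78.4% and 37.6%. Most of the higher Gfap level of pup 3 thus lay on the form with the alternative tail. A short non-coding transcript, Gfap-203, made up 9.31% in pup 3 and had 0 reads in pup 1.

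Of the 16 lineage genes with a mean of 20 TPM or more and more than 1 listed transcript, 10 had the same leading transcript in both pups, and 8 of these, including Fabp7, Slc1a3, Clu and Cst3, had 90% or more on it in both. Apoe-209 led Apoe at 81.5% in pup 1 and 80.7% in pup 3. Tnc was split between Tnc-204 (55.2%) and Tnc-203 (44.8%) in pup 1 and between Tnc-201 (66.5%) and Tnc-203 (33.5%) in pup 3; Tnc-201 and Tnc-204 each have 6057 coding bases and Tnc-203 has 6330. Short or intron-retaining transcripts took a large part of some genes: Sparc-205 took 42.5% of Sparc in pup 1 and 37.6% in pup 3, and Vim-203 took 27.5% of Vim in pup 1 and 36.5% in pup 3. Since TPM divides reads by length, such a form weighs more in TPM than in reads, and Vim-203 held 8.13% of the reads of Vim in pup 1 and 12.01% in pup 3. Ttyh1 was spread over several forms in pup 1, with Ttyh1-201, a form listed for nonsense-mediated decay, at 35.6%, and lay entirely on Ttyh1-206 in pup 3.

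**Figure D3:**
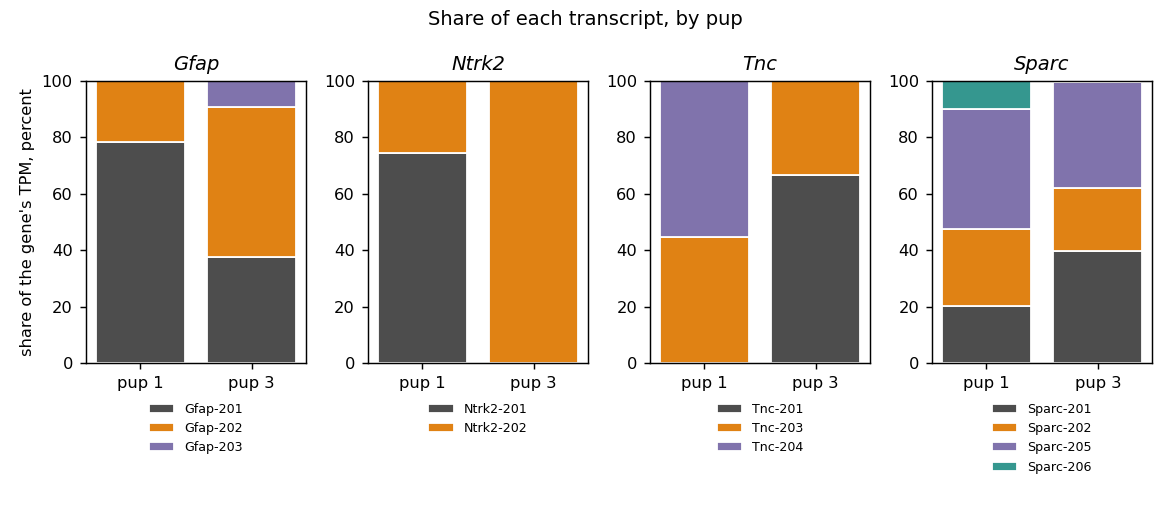
Share of each gene's TPM (vertical axis, percent) held by each transcript with 5% or more in either pup, in pup 1 (left bar) and pup 3 (right bar), for Gfap, Ntrk2, Tnc and Sparc; pale grey marks all other transcripts. Ntrk2-202 makes up 25.6% of Ntrk2 in pup 1 and 99.9% in pup 3.

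Of the oligodendrocyte precursor genes, only Pdgfra was found in both pups. Pdgfra, the platelet-derived growth factor receptor on which precursors depend, had 18.0 TPM in pup 1 and 14.8 TPM in pup 3, from 3076 and 2220 reads, a mean of 16.4 ± 2.21 TPM (SD, n = 2). Meningeal fibroblasts also express Pdgfra, and 5 of 8 meningeal markers were found in both pups. Of these, Col1a2 had 11.2 TPM in pup 1 and 10.5 TPM in pup 3, Dcn was higher in pup 3 (33.4 TPM in pup 1 against 69.0 TPM in pup 3), and Col3a1 (76.9 TPM in pup 1 against 31.4 TPM in pup 3) and Igf2 (155 TPM in pup 1 against 37.8 TPM in pup 3) were higher in pup 1. Slc6a13 had 42.6 TPM in pup 1 and 1 read in pup 3, and Col1a1 had 5.62 TPM in pup 1 and 0 in pup 3. The part of those cells in the level of Pdgfra was not tested. Cspg4, the NG2 proteoglycan of the precursor surface, had 5.29 TPM from 1116 reads in pup 1 and 1 read in pup 3.

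Each transcription factor of the lineage was found in 1 pup or in neither. Olig1 and Olig2, paired basic helix-loop-helix factors that lie 41095 bases apart on chromosome 16, had opposite patterns. Olig1 had 40.7 TPM from 2228 reads in pup 1 and 0 reads in pup 3, at least 649-fold higher in the library of pup 1. Olig2 had 0.03 TPM from 2 reads in pup 1 and 12 TPM from 650 reads in pup 3. Sox8 and Sox10, related factors that act together in this lineage, split in the same way. Sox8 had 9.92 TPM from 424 reads in pup 1 and 0 reads in pup 3, and Sox10 had 0 reads in pup 1 and 1.80 TPM from 109 reads in pup 3. An antisense gene that overlaps Sox8, 2810468N07Rik, had 29.1 TPM in pup 1 and 0 in pup 3. The strand setting of the counting is not given. The deposited posterior SD of the Sox8 count, which reflects how reads were shared out between genes, was 0 in pup 1. Nkx2-2, which acts at the onset of differentiation, had 0 reads in both libraries, which leaves room for up to 0.129 TPM in pup 1 and 0.148 TPM in pup 3.

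Of the genes of precursors that are about to differentiate, Gpr17 was close to absent and Bcas1 was in pup 1 alone. The myelin regulator Myrf, a further precursor gene chosen after its values were seen, went the other way. It reached 7.76 TPM in pup 3, where pup 1 held 1 read of it. Finding in pup 1 alone was common, at 37.6% of the protein-coding background. Gpr17, a receptor of committed precursors, had 16 reads (0.12 TPM) in pup 1 and 0 in pup 3, and the overlapping gene Lims2 had 14.0 TPM in pup 1 and 0 in pup 3. Bcas1, a marker of early myelinating cells, had 16.2 TPM from 1073 reads in pup 1 and 0 reads in pup 3, at least 182-fold higher in the library of pup 1.

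Of the myelin genes, Cnp alone was found in both pups. Cnp, a phosphodiesterase of the non-compact membrane that precursors already make, had 34.0 TPM in pup 1 and 2.59 TPM in pup 3, from 2035 and 135 reads. It overlaps Dnajc7 on the other strand, which had 191 TPM in pup 1 and 61.7 TPM in pup 3. Mag, the adhesion molecule of the innermost myelin layer, had 21.6 TPM from 1331 reads in pup 1 and 0 reads in pup 3, at least 243-fold higher in the library of pup 1. Mog, the glycoprotein of the outermost layer and a late marker, had 0 reads in both.

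Mbp carries both the classic myelin basic proteins and the golli proteins, which start at an upstream promoter and are also made in neurons and immune cells. The gene had 8.83 TPM from 1101 reads in pup 1 and 0 reads in pup 3. All 1101 reads of pup 1 were assigned to the transcripts of the upstream start, of which 4 are listed, and the 12 listed transcripts that start downstream, the classic ones among them, had 0 reads in either pup. As the deposited tables assign them, the Mbp reads thus lay on golli-type transcripts; the gene was examined by transcript after its values were seen.

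Set against each other, the precursor genes had a median of 5.29 TPM in pup 1 and 0 TPM in pup 3, and the myelin genes 15.2 TPM in pup 1 and 0 TPM in pup 3. On log2(TPM + 1) the precursor median was below the myelin median by 1.25 in pup 1 (a difference of -1.25) and equal to it at 0 in pup 3. With 9 and 4 genes, most of them read in 1 library or in none, no order between these classes holds in both pups. The median over all astroglial genes exceeded that over all oligodendrocyte genes by 3.53 in pup 1 and by 6.53 in pup 3.

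Other genes of the same lineages, taken from lists that hold none of the 41, were counted in the same way. Of 24 further astroglial genes, 11 passed in both pups, 8 only in pup 1, 2 only in pup 3 and 3 nowhere. Among the 21 that passed in either pup, the share in both was 52.4% and that in pup 1 alone 38.1%, close to the background of 53.3% and 37.6%. The share in both was below the 92.6% of the 27 astroglial genes of the 41 so found, but the lists differ in level. The median over the 24 was 9.85 TPM in pup 1 and 4.30 TPM in pup 3, against 113 TPM and 91.6 TPM over the 28 astroglial genes. As the share found in both was larger at higher levels, these shares do not compare the lists at like level. Aldoc, the brain aldolase, had 321 TPM in pup 1 and 193 TPM in pup 3, and Gpm6b, a membrane proteolipid, had 264 TPM in pup 1 and 301 TPM in pup 3. Ncan, the proteoglycan neurocan, which neurons also make, had 293 TPM in pup 1 and 35.6 TPM in pup 3. Of the gliogenic nuclear factors, Nfia had 45.5 TPM in pup 1 and 13.2 TPM in pup 3, and Nfib had 40.2 TPM in pup 1, against 85.2 TPM in pup 3. The pump subunit Atp1b2 (112 TPM in pup 1 and 23.7 TPM in pup 3) and the endothelin receptor Ednrb (97.9 TPM in pup 1 and 14.9 TPM in pup 3) were found in both, whereas Pla2g7, Bcan, S1pr1 and Slc7a10, at 50.1, 14.5, 12.8 and 10.2 TPM in pup 1, had at most 0.28 TPM in pup 3. The Slc7a10 value came from 113 estimated reads, all on transcripts under 1000 bases, and its protein-coding transcripts had 0 TPM in pup 1.

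Of 11 further precursor genes that were matched, 2 passed in both pups, 4 only in pup 1, 1 only in pup 3 and 4 nowhere. Vcan, the proteoglycan versican, was at 22.0 TPM in pup 1 against 21.1 TPM in pup 3; in reads per library it was higher in pup 1 (97.5 CPM in pup 1 against 59.7 CPM in pup 3), where 43.7% of its TPM but 3.69% of its reads lay on transcripts under 1000 bases. Of 12 further myelin genes, 1 was found in both pups and 9 in neither. Cldn11, the tight junction protein of myelin, had 25.1 TPM in pup 1 but 0 reads in pup 3. Omg, which neurons also express, had 15.8 TPM in pup 1 and 84.8 TPM in pup 3. Like Mag and Mbp, Cldn11 was thus read in pup 1 alone.

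The levels of the 41 genes in the pups were correlated, with Pearson's r of 0.825 and Spearman's rho of 0.834 on log2(TPM + 1), where all 9953 protein-coding genes found in either pup gave 0.419 and 0.444. The 2 sets are not alike: the 41 include 4 genes found in neither pup, and the 9953 include none. A mean of 100 TPM or more was reached by 14 of the 41, against 1519 of the 9953. The gap between these coefficients is therefore not one at like level. Over the 28 astroglial genes r was 0.862 and over the 13 oligodendrocyte genes it was -0.04. These are descriptions across genes, which share their library and are not replicates, and the median level was 35.8 TPM in pup 1 and 14.8 TPM in pup 3 over the lineage genes, beside 23.7 TPM and 12.4 TPM over those protein-coding genes. Of the 37 lineage genes found in either pup, 11 were 4-fold or more higher in pup 1 on log2(TPM + 1), against 38.6% of all genes, and 1 (Olig2) was 4-fold or more higher in pup 3, against 13.2%. The 11 were Sox9, Ttyh1, S100b and Mlc1 of the astroglial genes and Cspg4, Olig1, Sox8, Bcas1, Mbp, Mag and Cnp of the oligodendrocyte genes. The median log2 ratio was 0.15 over the 27 astroglial genes found in either pup and 3.29 over the 10 oligodendrocyte genes, beside 0.92 over all genes. With a pseudocount of 10 TPM in place of 1, 2 genes (Olig1 and Ttyh1) were past 4-fold in pup 1 and none was past it in pup 3.

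**Figure D4:**
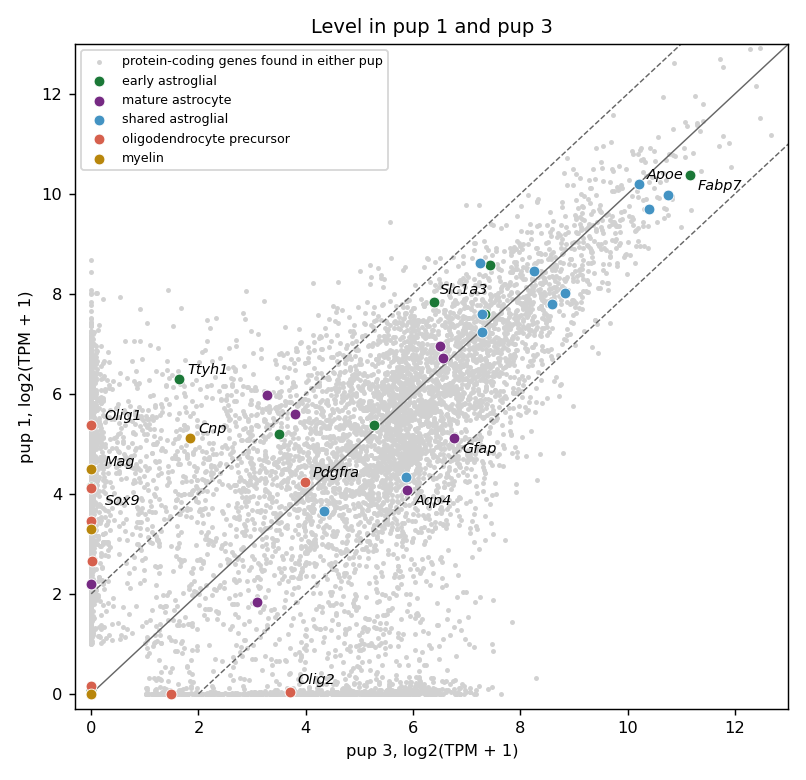
Level in pup 1 (vertical axis) against pup 3 (horizontal axis), both as log2(TPM + 1), for the 41 lineage genes by class (coloured points) and for the 9953 protein-coding genes found in either pup (grey points); the solid line marks equal levels and the dashed lines a 4-fold difference. Shared astroglial genes lie near the solid line, and oligodendrocyte genes such as Olig1, Mag and Olig2 lie along the axes.

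Reads of the lineage genes were rarely shared with other genes. The deposited posterior SD of the read count was 0 for 29 of 36 lineage genes with 10 or more reads in pup 1 and for 26 of 29 in pup 3, and it was at most 0.215% of the count, for Cnp in pup 3. That SD reflects how reads were shared out between genes and not the spread between animals. With 1 library per pup, the difference between animals and the loss of transcripts while libraries were made from so little RNA cannot be told apart, and no test between pups was made.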

How the data were processed

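Each library came with a gene table and a transcript table, not pooled. The authors deposited expected counts (reads apportioned among features by estimate), TPM, posterior mean TPM with credibility bounds, and FPKM, per the file headers, which follow RSEM's naming. The credibility bounds, a signal on the TPM scale, and the posterior SD of counts were computed by the authors' quantifier per feature, per the file headers. The text deposited with the libraries names assembly mm10 and annotation M4; for the aligner, the counter and the strand setting, nothing is given in the sources used here. RNA was extracted with mirVana, per the labels' protocols. The labels call the libraries separate pups but give both the same donor identifier.

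Symbols, positions and transcript types came from GENCODE M21 on the same assembly; 42462 of 43346 genes (98.0%) matched, as did 144 of 145 listed symbols (Lhfpl3 did not). Levels are deposited TPM; log2 ratios are pup 1 over pup 3 on log2(TPM + 1), which understates differences of low genes. A gene was found at TPM of 1 or more, and called different at 4-fold. With 1 group there is no contrast to test and no p-value. The 41 genes and the lists were chosen with earlier results of these data known. Named are all 41 genes and, by rule, other listed genes only at 10 TPM or more in either pup and transcripts only of genes with a mean of 20 TPM or more; genes outside this rule (Ntrk2 and Mbp transcripts, forebrain, microglial, Notch, Nes, Myrf and overlapping genes) were chosen after their values were seen. Some listed genes and sequences are not reported here. A bound against 0 reads uses 3 reads in that library and compares the libraries, not the animals. The ratio and calling steps were tested on simulated data. That simulation held counting error and set differences but no loss of transcripts, and scored only genes at 20 TPM or more in both simulated libraries. It checks the arithmetic and gives no error rate for libraries made from so little RNA. Alternatives covered the threshold, pseudocount, unit, a filter on low values, class membership, each library alone, and rounded expected counts scaled by edgeR 4.0.16 TMM factors or DESeq2 1.42.0 size factors. Analyses ran in R 4.3.3 and in Python 3.11.15 with pandas 2.3.3, numpy 2.4.6 and matplotlib 3.10.9.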

Additional observations from a re-analysis of the deposited data

How the results depend on the processing

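Of 100 values of class levels, class differences and counts under an alternative that kept both libraries, 81 stayed within the spread of the pups or within 1.5 times the count. The SD of the pups was 1.88 for the precursor level, 2.76 for the myelin level and 2.12 for the astroglial minus oligodendrocyte difference. The myelin level, 1.95, thus counted as unmoved at 0.24 on log2(TPM + 0.1) and at 3.97 on log2(TPM + 10). For these results the tally says little about stability. The difference of early minus mature astroglial medians, 0.68 as reported, was 1.29 over genes with a mean TPM of 1 or more and 0.22 over protein-coding transcripts alone (an alternative chosen after seeing the data, as was leaving out Mbp), and it reversed to -0.62 with Slc1a2 counted as early and to -1.07 with shared genes counted as mature. The mature level, 5.10, was 5.48 on log2(TPM + 10), 4.62 in FPKM, 5.74 without Slc1a2 and 6.85 with the shared genes. The shared level, 8.14, was 7.64 in FPKM and 8.31 after rescaling without spike-ins and mitochondrial genes, and the precursor level, 1.33, was 3.63 on log2(TPM + 10). The median log2 ratio over all 41 genes, 0.21, was 0.010 in FPKM, which moved the median of all protein-coding genes by -0.26; size factors from DESeq2 moved it by 0.12.

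The 11 genes 4-fold higher in pup 1 became 2 on log2(TPM + 10). The 1 gene 4-fold higher in pup 3 became 2 on log2(TPM + 0.1), in FPKM, in TMM-scaled counts and in counts divided by DESeq2 size factors, 0 on log2(TPM + 10), and 6 at 2-fold. In these cases the cause was not tested. Of 364 log2 ratios of single genes under an alternative, 348 kept their side of 4-fold and 16 did not. The filter on a mean TPM of 1 or more leaves each ratio as it was, so its rows are among the 348 by construction. The sign differed in some alternative for Gja1, Id3, Mfge8 and Ptprz1. With 1 library left out, the precursor level ran from 0 to 2.65, the myelin level from 0 to 3.9, the early minus mature difference from 0.42 to 0.94 and the number found from 29 to 35; with 2 libraries such levels and differences lie within their spread by construction and say nothing about stability. No paired analysis was possible because the libraries form 1 group. Genes under 10 TPM were often read in 1 library alone at this input, so 0 reads in a library does not show that the tissue lacks the gene.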

Other observations

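Several pairs of neighbouring or related lineage genes, picked after their values were seen, were read in opposite pups. Finding in a single pup was common: pup 1 alone took 37.6% of the protein-coding background and pup 3 alone 9.09%. At a mean from 1 to 10 TPM, 15.2% of that background passed in both. Other neighbours did not split, as Mt1, Mt2 and Mt3 were all higher in pup 3. How often pairs split among all genes was not computed. Besides Olig1 with Olig2 and Sox8 with Sox10, the myelin regulator Myrf had 1 read in pup 1 and 7.76 TPM from 596 reads in pup 3, whereas Bcas1 and Mag had 0 reads in pup 3. The complement genes of microglia showed the same kind of split, with C1qa at 76.2 TPM in pup 1 and 0 reads in pup 3, C1qc at 0 reads in pup 1 and 49.1 TPM in pup 3, and C1qb at 104 TPM in pup 1 against 64.4 TPM in pup 3. Notch targets were low, with Hes1 at 0.66 TPM in pup 1 against 5.23 TPM in pup 3 and Hes5 at 2.09 TPM in pup 1 and 0 in pup 3. Nes, the intermediate filament nestin, had 7.77 TPM from 1243 reads in pup 1 and 0 reads in pup 3, while its partner Vim was found in both. Pax6, a radial glial transcription factor, had 5.74 TPM in pup 1 and 13.9 TPM in pup 3, and Id4 had 3.91 TPM in pup 1 and 10.8 TPM in pup 3. Apart from Pax6, Id4, C1qa, C1qb and C1qc, these genes were chosen after their values were seen, and no explanation was tested.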
